A study of Homo sapiens with 18 samples.

Results

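The expression of 9 genes of glutamine and serine metabolism and of the ATF4 stress response was examined in ZR751 cells with and without MLL3 KD. ZR751 (ZR75-1) is an established estrogen receptor positive (ER+) breast cancer cell line, and MLL3 (KMT2C) is a histone methyltransferase that places monomethylation on lysine 4 of histone H3 (H3K4me1) at enhancers. The genes were chosen by symbol: GLUL, SLC1A1 and SLC1A5 of glutamine and glutamate handling, ASNS, PSAT1 and PHGDH of asparagine and serine synthesis, and ATF4, DDIT3 and TRIB3 of the stress response. All 9 were found among the 23500 entries of the expression table and all 9 were among the 11134 genes expressed highly enough to be tested. ZR751shMLL3 cells carried a short hairpin RNA (shRNA) against MLL3 and ZR751shLucif cells a control hairpin against luciferase, both delivered with the pLVTH lentiviral vector. Transduced cells were sorted on green fluorescent protein, and both lines were grown in RPMI with serum and insulin and harvested at steady state, with no other treatment. A single hairpin against MLL3 and a single control hairpin were used. RNA was sequenced from 2 biological replicates of each line, and H3K4me1, estrogen receptor α (ERα) and the transcription factor SP1 were each profiled by ChIP-seq in 2 replicates of each line. In the study's list of libraries the ZR751shMLL3 RNA came from later passages than the ZR751shLucif RNA, so that hairpin and passage cannot be told apart.

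ATF4 is a transcription factor whose translation rises when the initiation factor eIF2 is phosphorylated, a program called the integrated stress response (ISR) that is set off by amino acid shortage, unfolded proteins and other stresses. ATF4, with C/EBP partners, binds C/EBP-ATF response elements (CAREs) and turns on genes for amino acid uptake and synthesis, among them ASNS, PHGDH and PSAT1, and the stress genes DDIT3 (CHOP) and TRIB3. Glutamine enters cells through SLC1A5, is made from glutamate and ammonia by GLUL (glutamine synthetase) and is used by ASNS as the nitrogen donor for asparagine, while SLC1A1 takes up glutamate and aspartate. ER+ luminal breast cancers are known for strong expression of GLUL.

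Promoter sequence is shown for the genes whose upstream region held a CARE or a reproducible SP1 peak, since these are the sites that tie the genes to ATF4 or to a factor profiled here. The 1000 bases upstream of each transcription start site (TSS) were searched on both strands of GRCh37 for TGATGNAA (the CARE), GGGCGG (the GC box bound by SP1), AGGTCA (the half-site of the estrogen response element, ERE) and the full palindromic ERE. A CARE was present upstream of ASNS, PHGDH and DDIT3, 3 of the 9 genes, against 11.4% of 19856 promoters of protein-coding genes. In the GRCh37 reference sequences that follow, each read 5′ to 3′ on the strand of the gene, capitals mark the CARE and the GC boxes. The ASNS stretch, chr7:97501771-97501800 on the minus strand, holds a CARE that starts 68 bases before the TSS and overlaps what is known as the nutrient-sensing response element of this gene. Another match to the CARE letters, 886 bases before the TSS of ASNS, is not printed. The PHGDH stretch, chr1:120253587-120253626 on the plus strand, holds a CARE 954 bases before the TSS. The DDIT3 stretches, on the minus strand of chr12, lie at chr12:57914528-57914607 with a CARE and a GC box and at chr12:57914308-57914492 with 3 GC boxes, beside the TSS and under the SP1 peak described with the ChIP-seq results. The SLC1A1 stretch, chr9:4489648-4489847 on the plus strand, lies under an SP1 peak and holds 1 GC box.
ASNS: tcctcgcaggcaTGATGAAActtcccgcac
PHGDH: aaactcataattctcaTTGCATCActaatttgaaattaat
DDIT3 distal: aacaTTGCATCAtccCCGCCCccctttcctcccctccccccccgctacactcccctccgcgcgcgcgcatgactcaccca
DDIT3 proximal: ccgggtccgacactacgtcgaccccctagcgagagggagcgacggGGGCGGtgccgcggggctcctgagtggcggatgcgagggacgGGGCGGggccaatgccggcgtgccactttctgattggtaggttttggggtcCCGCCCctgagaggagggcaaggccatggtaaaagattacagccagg
SLC1A1: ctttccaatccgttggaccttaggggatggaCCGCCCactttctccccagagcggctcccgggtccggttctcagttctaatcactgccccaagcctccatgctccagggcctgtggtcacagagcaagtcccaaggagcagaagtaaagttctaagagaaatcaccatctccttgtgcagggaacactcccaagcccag

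The DDIT3 distal and the PHGDH CARE hold the same 8 letters, both on the strand opposite to the gene. The GC box was upstream of 8 of the 9 genes, with 10 matches for GLUL and 6 for DDIT3, against 69.9% of all promoters, and PHGDH was the gene without one. The ERE half-site was upstream of 4 genes (GLUL, SLC1A5, DDIT3 and TRIB3) against 46.8% of promoters. No palindromic ERE was found upstream of the 9 genes, and 0.0856% of promoters held one. The stretch between the DDIT3 stretches are an exon of MBD6 (chr12:57914493-57914526), which is transcribed from the other strand, so that a peak at this promoter cannot be assigned to one of these genes.

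GLUL, at chr1:182347233-182360925 on the minus strand, makes glutamine from glutamate and ammonia. Its level in FPKM (fragments scaled by transcript length and by the mapped fragments of the library, as the authors computed it) reached 291 in ZR751shLucif replicate 1 and 193 in replicate 2, and 102 in ZR751shMLL3 replicate 1 and 68.8 in replicate 2. Both KD libraries lay below both controls. The control mean was 242 ± 69.5 FPKM (SD, n = 2) and the KD mean 85.4 ± 23.5 FPKM (SD, n = 2). On the log2(FPKM + 0.5) scale the change was -1.50 (SE 0.35, 95% interval -2.33 to -0.66), which is 2.82-fold lower after KD. It did not pass the test across all genes, with an adjusted p of 0.4535 in limma (unadjusted p of 0.004464). GLUL passed when ZR751shLucif replicate 2 was left out (change -1.79, adjusted p of 0.02395 in limma), as did 1269 of the 11134 genes. In that fit the control is 1 library, assumed to vary like the KD replicates, which alone give the spread. The study showed GLUL as a gene that decreased in these libraries, so its direction is not independent evidence.

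SLC1A1, at chr9:4490468-4587469 on the plus strand, encodes a transporter of glutamate, aspartate and cysteine (EAAT3). It was at 10.3 and 7.11 FPKM in the control libraries and at 18.9 and 24.2 FPKM after KD, with no overlap. The means of 8.70 ± 2.25 (SD, n = 2) and 21.6 ± 3.74 (SD, n = 2) differed 2.42-fold, and the log2 change was 1.27 (SE 0.31, 95% interval 0.52 to 2.03). The adjusted p in limma was 0.4753, and over 14 other ways of processing it ranged down to 0.05446 with changes of 1.02 to 1.53, short of the threshold in each. SLC1A1 was also among the genes the study listed from these libraries, and its direction is likewise not independent.

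SLC1A5, at chr19:47278140-47291851 on the minus strand, encodes ASCT2, the main glutamine importer of many tumor cells. Its FPKM was 338 and 293 in the control libraries and 429 and 424 after KD. The groups did not overlap, and the means of 315 ± 31.8 (SD, n = 2) and 426 ± 3.40 (SD, n = 2) differed 1.35-fold. The log2 change of 0.44 (SE 0.27, 95% interval -0.20 to 1.08) had an adjusted p of 0.6485 in limma. Together, 2 of the 9 genes lay above both controls in both KD libraries and 1 lay below, where 17.6% and 25.3% of all genes tested did so.

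**Figure D1:**
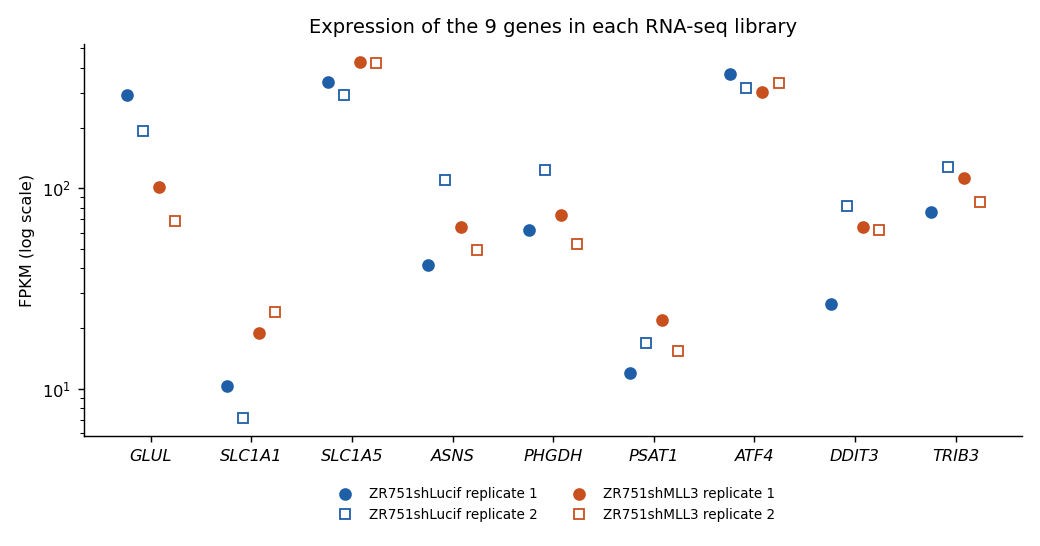
Expression of the 9 genes in each RNA-seq library, in FPKM on a log scale, with 1 point per library and no error bars. The KD points of GLUL sit below both controls and those of SLC1A1 and SLC1A5 above, while for the other 6 genes the lines overlap.

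The genes of asparagine and serine synthesis overlapped between the lines. ASNS, at chr7:97480989-97501720 on the minus strand, makes asparagine from aspartate and glutamine. It was at 41.2 and 109 FPKM in the control libraries, a 2.66-fold difference between replicates, and both KD libraries fell between these, at 64.0 and 49.3 FPKM. Its log2 change was -0.26 (SE 0.48, adjusted p of 0.8673 in limma). PHGDH, at chr1:120254557-120286838 on the plus strand, catalyzes the first step of serine synthesis. It was at 61.6 and 124 FPKM in the control libraries and at 74.0 and 52.6 FPKM after KD. The control replicates differed 2.01-fold, again with replicate 2 higher, and the change of -0.48 (SE 0.41) had an adjusted p of 0.7083 in limma. PSAT1, at chr9:80912041-80945009 on the plus strand, catalyzes the next step of that pathway. Its control replicates differed least of these genes, at 11.999 and 16.9 FPKM in the control libraries and 22.1 and 15.4 FPKM after KD. Its change of 0.36 (SE 0.32) had an adjusted p of 0.7269 in limma. Without ZR751shLucif replicate 2 the change of ASNS turned to 0.44 and that of PHGDH to 0.018.

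ATF4 and its stress targets did not separate the lines either. ATF4, at chr22:39916567-39918688 on the plus strand, was at 372 and 317 FPKM in the control libraries and 303 and 336 FPKM after KD. With a log2 change of -0.11 (95% interval -0.76 to 0.55, adjusted p of 0.9033 in limma), its level overlapped, and its mRNA says nothing of its translation, the step that the ISR controls. DDIT3, at chr12:57910376-57914297 on the minus strand, encodes a transcription factor that promotes cell death under lasting stress. It was at 26.4 and 81.8 FPKM in the control libraries, a 3.10-fold difference, and at 64.3 and 62.2 FPKM after KD. Both KD values lay between the controls. TRIB3, at chr20:361404-378203 on the plus strand, encodes a pseudokinase that restrains ATF4 and AKT signaling. It was at 76.6 and 128 FPKM in the control libraries and 113 and 85.0 FPKM after KD. The changes were 0.44 (SE 0.52, adjusted p of 0.7871 in limma) for DDIT3 and -0.012 (SE 0.35, adjusted p of 0.995) for TRIB3. DDIT3 depended on which control was kept. Without ZR751shLucif replicate 2 its change was 1.25 (adjusted p of 0.02903 in limma), and without replicate 1 it was -0.37 (adjusted p of 0.4508). In both fits the spread comes from the KD replicates alone (SE 0.23, against 0.52 with all libraries). TRIB3 turned to 0.35 without ZR751shLucif replicate 2.

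**Figure D2:**
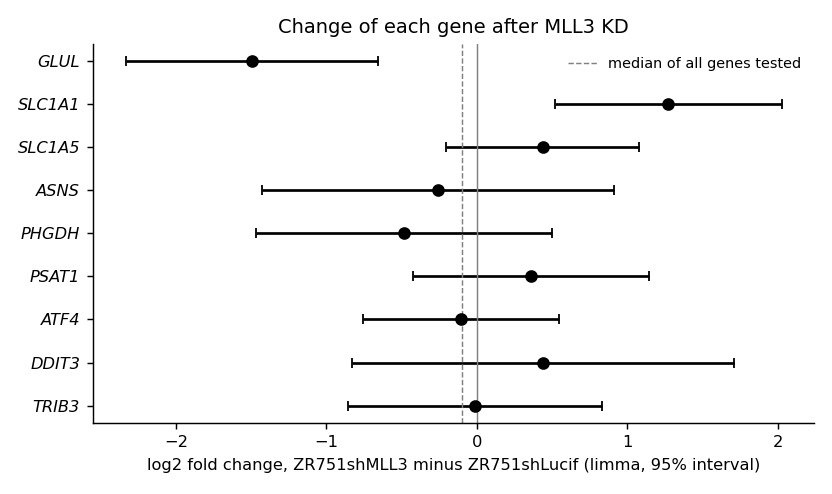
Change of each gene after MLL3 KD as the log2 fold change of ZR751shMLL3 over ZR751shLucif, with points for the limma estimate, bars for the 95% interval and a dashed line at the median of all genes tested (-0.097). The intervals of GLUL (-2.33 to -0.66) and SLC1A1 (0.52 to 2.03) leave out 0 before adjustment over all genes, and those of the other 7 genes span it.

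None of the 9 genes passed an adjusted p of 0.05 in limma, and 2 had an unadjusted p at or under 0.05. Across all genes tested, 0.00898% passed (1 gene, which was lower, with 0% higher), while 409 genes had a higher and 480 a lower mean at an unadjusted p at or under 0.05. That gene, named here after its values were seen, was SNORD104, a small nucleolar RNA at 236 and 358 FPKM in the control libraries and listed at 0 in both KD libraries (adjusted p of 0.0005875 in limma). By level, the 9 genes covered a wide range: the mean log2 level of SLC1A5, ATF4 and GLUL was at the 98.2, 98.0 and 94.8 percentile of the genes tested, and that of PSAT1 and SLC1A1 at the 57.3 and 51.8 percentile. In these bulk cultures, fewer cells that express a gene and less of its RNA per cell cannot be told apart.

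Several libraries differed beyond the genes above. KMT2C itself was at 2.34 and 6.77 FPKM in the control libraries and 1.07 and 2.69 FPKM after KD, so that the lines overlapped. Its change of -1.02 (SE 0.54) had an adjusted p of 0.6289 in limma, and its level was low, at the 9.74 percentile of the genes tested. The study reported the KD from qPCR in biological triplicate, a measurement apart from these libraries. The log2 levels of the control replicates correlated across genes at 0.900, against 0.969 for the KD replicates, and 13.9% of genes differed by more than 1 on the log2 scale between the control replicates against 1.87% between the KD replicates. All 10 luminal markers were tested, with ESR1 at 10.8 to 14.2 FPKM and KRT8 at 1652 to 4573 FPKM, and 5 had higher and 5 had lower means after KD. The basal markers KRT5, KRT14, TP63 and VIM were at or under 0.372 FPKM in all 4 libraries and ACTA2 was at 1.65 to 3.71 FPKM. PTPRC, CD3E, PECAM1 and COL3A1, of blood, endothelium and fibroblasts, were at or under 0.0601 FPKM, and COL1A1 was at 13.1 to 17.8 FPKM.

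The wider set of ATF4 and ISR targets did not move one way after KD, and most of it was higher in one control replicate than in the other. Of 39 such genes other than the 9, 37 were tested and 0 passed in either direction. Their log2 changes were above 0 for 20 and below 0 for 17, with a median of 0.058 against -0.097 for all genes tested. Both KD libraries lay above both controls for 5 and below for 7 of the 37, where 17.6% of all genes tested lay above and 25.3% below. Between the control libraries, 30 of the 37 were higher in replicate 2, with a median difference of 0.74 on the log2 scale where the median of all genes was -0.24. The difference exceeded 1 for 12 of the 37 between the control replicates and for 1 between the KD replicates. Among the 9 genes, ASNS, PHGDH, PSAT1, DDIT3 and TRIB3 were higher in ZR751shLucif replicate 2 and GLUL, SLC1A1, SLC1A5 and ATF4 were lower. Why the control cultures differed was not tested.

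Among single targets, CHAC1, which degrades glutathione, was at 4.91 and 16.8 FPKM in the control libraries and 27.9 and 20.5 FPKM after KD. Its change of 1.33 (SE 0.55) was the largest increase of the list, at an adjusted p of 0.6130 in limma. SLC7A5, the light chain of the leucine transporter LAT1, was at 262 and 405.1 FPKM in the control libraries and at 680 and 644 FPKM after KD. Its change was 1.02 (SE 0.31, adjusted p of 0.5569 in limma), and both KD libraries lay above both controls. The largest decreases were those of NUPR1, a stress-induced chromatin protein, and XPOT, the exporter of tRNA from the nucleus. NUPR1 was at 97.1 and 175 FPKM in the control libraries and 53.9 and 94.5 FPKM after KD, a change of -0.86. XPOT was at 191 and 158 FPKM against 93.7 and 97.1 FPKM, also a change of -0.86 (SE 0.27, adjusted p of 0.5625 in limma). Both lay below the controls in both KD libraries.

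In the neighboring pathways 0 genes passed in either direction. Of 19 other serine, glycine and one-carbon genes, 15 were tested, and their changes were above 0 for 3 and below 0 for 12, with a median of -0.24. SFXN1, a mitochondrial serine carrier, had a change of 0.23. DLD and GCSH, both of the glycine cleavage system, had changes of -0.59 and -0.57. Of 35 other glutamine, glutamate, aspartate and proline genes, 27 were tested, 10 above 0 and 17 below, with a median of -0.21. Both KD libraries lay below both controls for 10 of these 27 and above for 3, beside 25.3% and 17.6% of all genes tested. GFPT1, which uses glutamine to start hexosamine synthesis, was at 36.0 and 51.9 FPKM in the control libraries and 23.01 and 26.9 FPKM after KD (change -0.79), and GCLC, of glutathione synthesis, changed by -0.65. At the other end were the paralog GFPT2 at 0.58, with overlapping libraries, and ALDH4A1, of proline breakdown, at 0.49.

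Upstream of ATF4, all 18 kinases, eIF2 and eIF2B subunits and related regulators were tested, and 3 had changes above 0 and 15 below, with a median of -0.33. Both KD libraries lay below both controls for 8 of the 18 and above for 0, with 25.3% of all genes tested below and 17.6% above. EIF2A, an initiation factor that is not a subunit of eIF2, was at 59.6 and 24.5 FPKM in the control libraries and 7.48 and 9.84 FPKM after KD. Its change of -2.09 (SE 0.45) had an adjusted p of 0.4178 in limma. EIF2B2 followed at -0.84 with overlapping libraries, at 35.3 and 10.7 FPKM against 11.7 and 9.69 FPKM, and the 2 highest were EIF2AK2 (PKR) at 0.35 and PPP1R15B, an eIF2 phosphatase subunit, at 0.16. In this list, too, the control replicates differed, with a median of -0.44 for replicate 2 over replicate 1. For contrast, the 17 genes of the ATF6 and XBP1 branch of the endoplasmic reticulum stress response had a median change of -0.037, with 8 above 0 and 9 below. They ranged from CRELD2 and SDF2L1, at 0.61 and 0.55, to SEL1L and MANF, at -0.57 and -0.48.

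**Figure D3:**
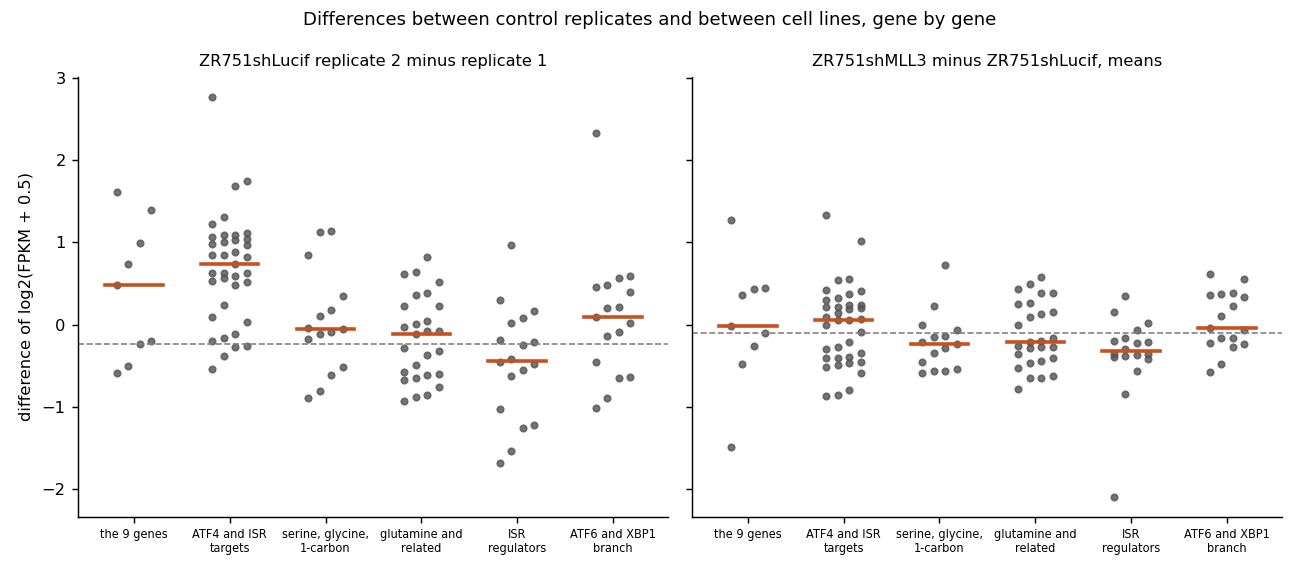
Differences on the log2(FPKM + 0.5) scale for each gene of the 9 and of the other lists, between the control replicates (left) and between the means of the cell lines (right), with a point per gene, a line at each list's median and a dashed line at the median of all genes tested. The ATF4 and ISR targets lie mostly above 0 on the left, with a median of 0.74, and around 0 on the right, with a median of 0.058.

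H3K4me1, ERα and SP1 peaks were then examined within 100 kb of the 9 genes, to ask whether the marks of the enhancers that MLL3 acts on, or the factors profiled beside it, changed there. The authors called peaks with SPP in each library against an input, in relaxed lists limited by rank that held 156481 to 300000 peaks. Signals of different lists share no scale, so that peaks were compared by rank. The irreproducible discovery rate (IDR) of a set estimates the share of its peaks that do not repeat between replicates. At an IDR of 0.7, most of a set may thus not repeat. Peaks of the replicates that overlapped were called reproducible by an IDR at or under 0.1 for H3K4me1, 0.7 for ERα and 0.5 for SP1. This gave 31639 H3K4me1 peaks in ZR751shLucif and 8605 in ZR751shMLL3, 1265 and 1217 ERα peaks, and 527 and 1950 SP1 peaks.

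Reproducible H3K4me1 peaks lay near 4 of the 9 genes in both lines, GLUL, PHGDH, SLC1A1 and SLC1A5. For comparison, 63.8% of the genes tested by RNA-seq (52.6% of all annotated genes) had such a peak in ZR751shLucif and 33.7% (26.9%) in ZR751shMLL3. GLUL had the most of the 9 genes, with 29 peaks in 18 separate regions in ZR751shLucif and 6 peaks in 6 regions in ZR751shMLL3. GLUL had the nearest TSS of a coding gene for 28 of the 29 and 5 of the 6 peaks. In ZR751shLucif, 8 peaks lay in the gene and 20 in the intergenic stretch beyond its 3′ end, up to 112396 bases from the TSS, and the remaining peak was 6349 bases upstream of the TSS, inside TEDDM1. The best placed, at chr1:182258805-182259768, had ranks of 571 and 404 in the control replicates. In ZR751shMLL3 the best placed was at chr1:182286947-182287967, with ranks of 444 and 7581.

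The reproducible set was smaller after KD over the whole genome as well as near GLUL. The study, by contrast, reported more H3K4me1 and SP1 peaks and fewer ERα peaks assigned to GLUL after KD. For H3K4me1 that is the opposite direction. It assigned peaks to the closest differentially expressed genes, over longer distances than the 100 kb used here, so the counts are not alike. Of the 29 GLUL peaks of ZR751shLucif, 6 overlapped a reproducible ZR751shMLL3 peak. However, ZR751shMLL3 replicate 1 had 13 of the 29 in its first 50000 peaks and 22 in its whole list, and replicate 2 had 19 and 28. Over the genome, the first 50000 peaks of these libraries held 48.4% and 50.4% of the reproducible ZR751shLucif peaks, and the whole lists 85.9% and 89.0%. PHGDH had 18 peaks in 13 regions in ZR751shLucif and 4 peaks in 4 regions in ZR751shMLL3. Of the 18, 2 lay inside PHGDH, and for 5 its TSS was the nearest, while the others were closer to the TSS of another coding gene. The first 50000 peaks of the KD replicates held 12 and 4 of these 18, and the whole lists 17 and 16.

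SLC1A1 and SLC1A5 had few reproducible H3K4me1 peaks. SLC1A1 had 1 in ZR751shLucif, in an intron 18321 bases from the TSS, and 2 in ZR751shMLL3, in introns 89192 and 91504 bases from the TSS. SLC1A5 had 2 and 1, and all 3 lay inside ARHGAP35. The other 5 genes, ASNS, PSAT1, ATF4, DDIT3 and TRIB3, had none in either line.

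**Figure D4:**
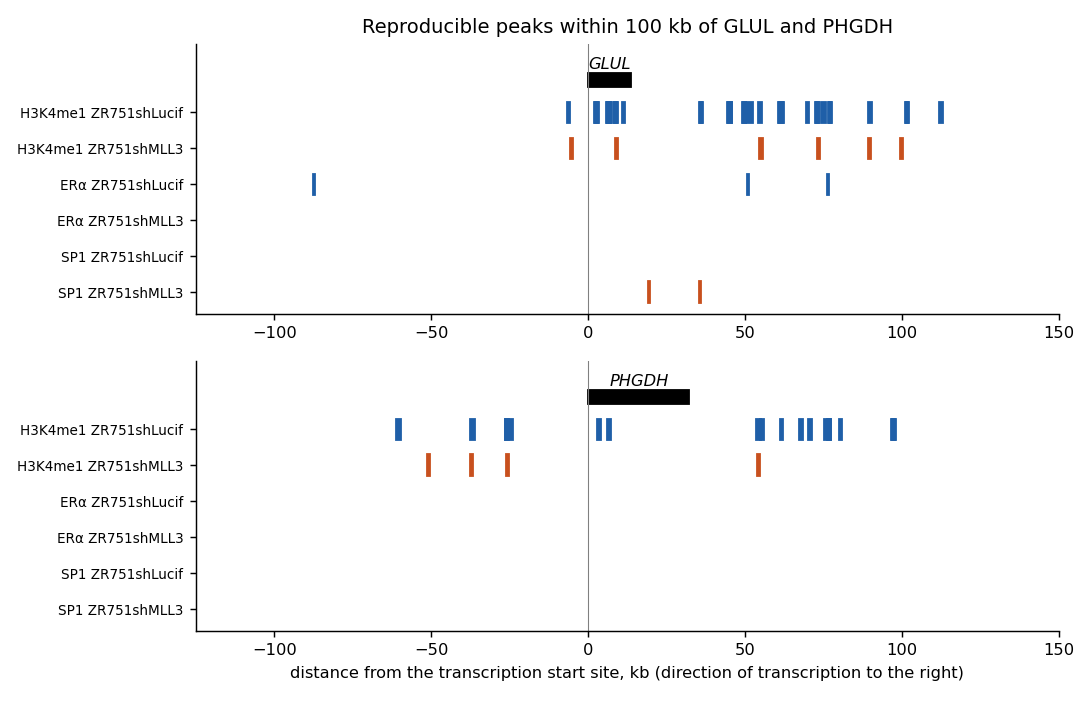
Reproducible peaks around GLUL (top) and PHGDH (bottom) by antibody and cell line, against the distance from the TSS in kb, with the black bar as the gene. Near GLUL the 29 H3K4me1 peaks of ZR751shLucif and the 6 of ZR751shMLL3 span the gene and the stretch beyond its 3′ end, and near PHGDH there are 18 and 4.

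When the same number of peaks was taken from each library, the difference near GLUL was smaller. Among the 50000 top-ranked H3K4me1 peaks, 31 and 36 lay within 100 kb of GLUL in the control libraries and 19 and 30 in the KD libraries. PHGDH had 20 and 22 against 15 and 9. Both genes thus had fewer peaks in both KD libraries, as did 14.4% of the genes tested. SLC1A1, whose mRNA was higher, had 5 and 5 peaks in the control libraries and 9 and 12 after KD, and was the 1 gene with more in both, as were 12.7% of the genes tested. The remaining 6 genes had 0 to 7 peaks in each library, with overlap or ties between the lines. Summed over the 9 genes there were 62 and 76 peaks in the control libraries and 56 and 60 after KD. The means of 69 ± 9.90 (SD, n = 2) and 58 ± 2.83 (SD, n = 2) gave p = 0.3333 (exact permutation test, two-sided), and no smaller p can be had from 2 libraries a group. Within 20 kb in place of 100 kb, the difference of the means was 0.

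**Figure D5:**
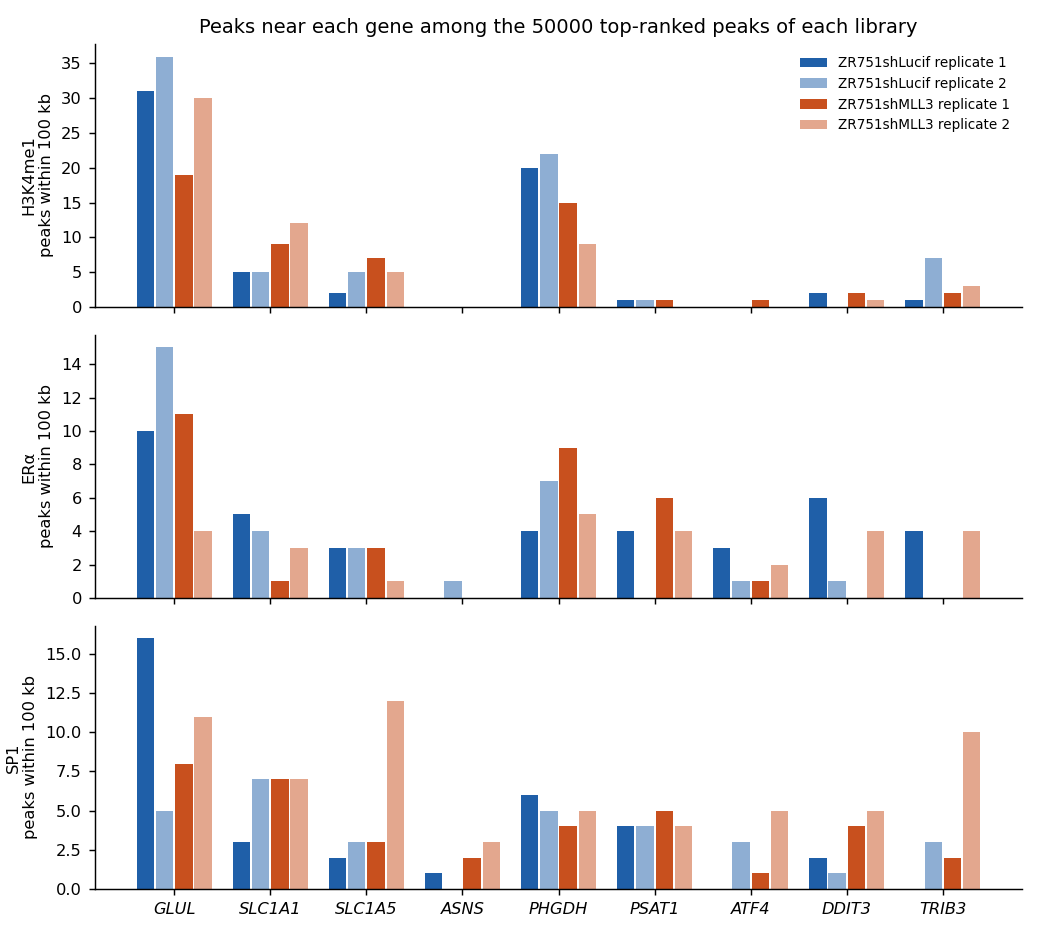
Number of peaks within 100 kb of each gene among the 50000 top-ranked peaks of each ChIP-seq library, for H3K4me1 (top), ERα (middle) and SP1 (bottom), with 1 bar per library. For H3K4me1 the KD bars of GLUL and PHGDH are below both controls and those of SLC1A1 above, and for SP1 the bars of ZR751shMLL3 replicate 2 reach 12 for SLC1A5 and 10 for TRIB3.

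ERα is the hormone receptor that defines this tumor type. In ZR751shLucif, GLUL was the 1 gene of the 9 with reproducible ERα peaks within 100 kb, where 9.28% of the genes tested (7.86% of all annotated genes) had one. In ZR751shMLL3, PSAT1 was the 1 gene, against 7.54% of the genes tested (7.38% of all annotated genes). The 3 GLUL peaks were 76433 and 50935 bases from the TSS beyond the 3′ end, with ranks of 390 and 9621 and of 37578 and 559, and 87510 bases upstream inside RGSL1, with ranks of 8049 and 37658. Their IDRs were 0.0644, 0.639 and 0.513, and that of the PSAT1 peak was 0.130. At an IDR of 0.05, 0 of the 9 genes had a reproducible ERα peak in either line. That limit left 230 ERα peaks over the genome in ZR751shLucif and 274 in ZR751shMLL3. None of the 3 GLUL peaks overlapped any listed peak of either ZR751shMLL3 library, where 42.1% and 27.8% of all reproducible ZR751shLucif ERα peaks overlapped one. Neither the palindromic ERE nor its half-site was within 100 bases of the summits of these 3 peaks or of the PSAT1 peak. Of all reproducible ERα peaks of ZR751shLucif, 6.01% held the palindrome and 23.1% the half-site in that window. By library name, the ERα library of ZR751shLucif replicate 2 came from another series than the other ERα libraries.

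Among the 50000 top-ranked ERα peaks, GLUL had 10 and 15 in the control libraries and 11 and 4 after KD, so the lines overlapped. SLC1A1 had 5 and 4 against 1 and 3, fewer in both KD libraries, as had 12.1% of the genes tested, and 0 of the 9 genes had more in both, against 6.58%. The sums over the 9 genes were 39 and 32 in the control libraries and 31 and 27 after KD (two-sided p of 0.3333, exact permutation test).

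SP1 is a widely expressed factor that binds GC boxes in promoters. No reproducible SP1 peak lay within 100 kb of the 9 genes in ZR751shLucif, where 10.2% of the genes tested (5.77% of all annotated genes) had one. In ZR751shMLL3, 4 of the 9 had one, GLUL, SLC1A1, SLC1A5 and DDIT3, against 32.8% of the genes tested (19.4% of all annotated genes). The DDIT3 peak was the best ranked, at chr12:57913999-57914504 with ranks of 1749 and 759 in the KD replicates. Its replicate summits were at -68 and 48 bases from the TSS, with the midpoint 10 bases upstream. The peak covered the proximal sequence printed above. It held 2 GC boxes within 100 bases of that midpoint, where 38.5% of all reproducible ZR751shMLL3 SP1 peaks held at least 1. The SLC1A1 peak, 663 bases upstream of the TSS, had ranks of 1144 and 24088. The SLC1A5 peak was 62273 bases upstream of that gene and 21 bases from the TSS of AP2S1, and the 2 GLUL peaks were 19278 and 35638 bases from the TSS beyond the 3′ end. The IDR was 0.0162 for the DDIT3 peak and 0.164 to 0.335 for the other 4. At an IDR of 0.05, which left 386 SP1 peaks over the genome in ZR751shMLL3, DDIT3 alone of the 9 genes had a reproducible SP1 peak. The other 4 peaks held no GC box within 100 bases of the midpoint of their replicate summits. For SLC1A1, however, the replicate summits were at -813 and -513 bases from the TSS. The GC box printed above, which starts 789 bases upstream, lies within 100 bases of the replicate 1 summit.

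In the control libraries, DDIT3 had an SP1 peak within 1 kb of the TSS at ranks 14056 and 297153 of the 2 lists, and SLC1A1 at rank 161145 of replicate 1 and at none of replicate 2. The SP1 lists, however, differed in more than these genes. ZR751shMLL3 replicate 2 stood apart, with a top-ranked peak within 1 kb of the TSS for 63.1% of 10234 expressed coding genes, where the other 3 SP1 libraries had 8.49% to 10.9%. Of the 9 genes, 7 had such a peak in that library, against 1 and 0 in the control libraries and 2 in ZR751shMLL3 replicate 1. Both ZR751shLucif SP1 libraries had 0 peaks at a false discovery rate (FDR) of 0.01 or less, where the KD libraries had 204178 and 12065. By the library names the SP1 libraries and the ZR751shLucif input were of one series and the ZR751shMLL3 input of another, so that the input and the hairpin cannot be told apart for SP1.

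Among the 50000 top-ranked SP1 peaks, DDIT3 had 2 and 1 within 100 kb in the control libraries and 4 and 5 after KD. ASNS had 1 and 0 against 2 and 3. These 2 of the 9 genes had more in both KD libraries, as had 19.3% of the genes tested, and 0 had fewer in both, against 3.55%. Over the 9 genes the sums were 34 and 31 in the control libraries and 36 and 62 after KD (two-sided p of 0.3333, exact permutation test). The difference of the means was 16.5 and fell to 3.5 without ZR751shMLL3 replicate 2.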

How the data were processed

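RNA-seq and ChIP-seq libraries of ZR751shLucif and ZR751shMLL3 cells were grouped by their labels, with 2 biological replicates per line and assay and 18 libraries in all, of which the 2 inputs were used only by the authors. The deposited RNA values are FPKM per RefSeq gene, which the authors made with TopHat2 2.0.13 and Cufflinks and Cuffnorm 2.2.1 on hg19. The deposited peak lists give, for each peak, a signal value of SPP and its −log10 FDR, after alignment with BWA 0.7.5a-r405 and removal of duplicates with Picard 1.126, and each list was called in 1 library. How reads shared with pseudogenes (annotated for GLUL, ASNS, PSAT1 and ATF4) or with genes that overlap DDIT3 (MARS1 and a readthrough transcript) were assigned is not given in the sources used here. FPKM and ranks keep no depth, so the reads behind a given gene or peak are unknown.

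The test was limma (version 3.58.1, R 4.3.3) on log2(FPKM + 0.5), for genes whose mean exceeded 1 on that scale, with Benjamini-Hochberg adjustment over all 11134 genes, and a fold change on this scale understates the change of low genes. The study removed surrogate variables first, which with 4 libraries leaves 1 residual degree of freedom when 1 variable is removed, so that step was an alternative. IDR came from a Gaussian copula mixture of the signal ranks of overlapping replicate peaks, with the thresholds of the study's table of peak sets. Other places in the study give lower ones for ERα and SP1. The number of reproducible peaks depends on that fit. In ZR751shLucif and ZR751shMLL3 it took shares of 0.0306 and 0.0106 of the overlapping ERα pairs as reproducible, and 0.0368 and 0.0801 of the SP1 pairs. Distances, motifs and genes are on GRCh37 (the hg19 sequence) with the GENCODE annotation, and top-ranked peaks were the first 50000 of each list. Replicate numbers did not pair the RNA libraries (the deviations of same-numbered libraries correlated at 0.0374). The genes named were the 9, KMT2C, and the 2 largest changes each way in each other list, of which 1 gene is not reported here. The 9 genes and all lists were chosen with earlier results of these data known. The limma and IDR steps were tested on simulated data. For limma these had the same spread in all libraries and larger changes than those of the 9 genes. For IDR they had a larger reproducible share than the ERα and SP1 fits. The simulations therefore do not cover the unequal replicates or the weak sets seen here. Analyses used Python 3.11.15 with numpy 2.4.6, scipy 1.17.1, pandas 2.3.3, pyfaidx 0.9.0.4 and matplotlib 3.10.9. Alternatives to the processing were the pseudocount, the filter, other scalings, a GC content correction, the replicate block, surrogate variable removal, each replicate left out, and for peaks the threshold, overlap, distance and number of peaks.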

Additional observations from a re-analysis of the deposited data

How the results depend on the processing

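No gene of the 9 passed the threshold under 12 of 14 alternatives. After removal of 1 surrogate variable 2 of the 9 passed, SLC1A5 at 0.44 (adjusted p of 0.009508, ordinary t-test) and DDIT3 at 0.44 (adjusted p of 0.03814, ordinary t-test). So did 1682 of all genes, and 5 ATF4 and ISR targets, 2 serine, glycine and one-carbon genes, 4 glutamine and related genes, 2 ISR regulators and 1 gene of the ATF6 and XBP1 branch. That t-test, without the moderation of limma, counted 2 residual degrees of freedom where the removal leaves 1. Its p-values are therefore too small and its counts of genes too high. With the replicate block 0 of the 9, 0 genes of the other lists and 33 of all genes passed, 14 higher and 19 lower. The numbers did not pair the libraries. Leaving out 1 replicate gave 0 to 2 of the 9, and 0 to 4, 0 to 2, 0 to 3 and 0 to 1 genes of the ATF4, serine, ISR regulator and ATF6 lists. All of these passed without ZR751shLucif replicate 2, where 1269 of all genes did, against 2 to 4 without any other library. With 1 control library left, the spread comes from the KD replicates alone, and that library is assumed to vary like them. The changes then ranged from -1.79 to -1.20 for GLUL, -0.22 to 0.012 for ATF4, -0.37 to 1.25 for DDIT3, -0.96 to 0.44 for ASNS, -0.98 to 0.018 for PHGDH and -0.38 to 0.35 for TRIB3. GLUL stayed below 0 and SLC1A1, SLC1A5 and PSAT1 above 0 under all 14 alternatives. Quantile normalization turned ATF4 to 0.060 and TRIB3 to 0.10, median centring turned TRIB3 to 0.068 and removal of the GC content trend turned ASNS to 0.022. With no filter, or with the GC content trend removed, 0 of all genes passed.

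Counts of genes with a reproducible peak moved with the rule, as did the size of the whole sets. The share of all genes with a peak was not computed under these other rules. For H3K4me1, 7 genes had one in ZR751shLucif at an FDR of 0.01 in both replicates, where the set held 85170 peaks in place of 31639. In ZR751shMLL3, 2 had one at an IDR of 0.05 or with a larger required overlap, with sets of 3932 and 4738 peaks in place of 8605. For ERα, 0 had one in ZR751shLucif at an IDR of 0.05, and in ZR751shMLL3 0 at that IDR, 0 at the FDR and 2 with that overlap. For SP1, 1 had one in ZR751shMLL3 at an IDR of 0.05, where the set held 386 peaks in place of 1950. The difference of top-ranked H3K4me1 peaks was 0 within 20 kb and -18.5 at most. The causes of these moves were not tested. With 2 libraries per group, no exact test could pass 0.05, and FPKM and ranked lists leave the reads behind a given gene or peak unknown.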

Other observations

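Further genes of amino acid transport and metabolism had the following levels. SLC7A11, the light chain of the cystine and glutamate exchanger, was at 1.14 and 10.7 FPKM in the control libraries and 4.90 and 6.70 FPKM after KD. PCK2, which makes phosphoenolpyruvate in mitochondria, was at 42.4 and 144 FPKM against 117 and 79.2 FPKM, and MTHFD2, of mitochondrial folate metabolism, at 145 and 317 FPKM against 184 and 204 FPKM. For each of the 3, both KD libraries lay between the controls. SLC3A2, the heavy chain shared by SLC7A5 and SLC7A11, was at 180 and 278 FPKM in the control libraries and 376 and 290 FPKM after KD, above both controls. These 4 genes were picked after their values were seen, and the cause of the difference between the control cultures was not tested.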
